A study of Mus musculus with 32 samples.

Results

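Contractile late mesenchymal progenitors (LMPs) were cells of cultured mouse marrow stroma that carried transcripts of the smooth muscle actin cytoskeleton together with transcripts of a fibroblast-like secreted matrix. They were chosen by a score, the mean of ln(1 + UMIs per 10000) over *Aspn*, *Tagln*, *Acta2*, *Timp3*, *Actg2*, *Wisp2* and *Itm2a*, where a UMI is a molecular tag that counts one captured transcript. Members lay in the top 20% of the score over all pools and had no UMI of the proliferation genes *Mki67* and *Top2a*. The rule took 7442 of 48776 cells (15.3%), and the other 41334 cells are called the remaining cells. High-score cells with a *Mki67* or *Top2a* UMI, 2314 of 9756 (23.7%), stayed among the remaining cells. The genes of the score, *Mki67* and *Top2a* chose the members, so their levels are descriptions and carry no test. All other genes were measured in the same cells from which the members were chosen. Their counts of calls and fold changes describe how the classes differ, and no p-value is given for them as independent evidence.

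The libraries were 10x single-cell RNA-seq libraries of bone marrow stromal cells from Diversity Outbred (DO) mice, an outbred stock that descends from several inbred founder strains, grown under osteogenic differentiation (BMSC-OBs). Cells of 4 or 5 mice were pooled before capture, which gave 16 pools from 77 mice. All pools shared this stock, tissue and culture, no treatment separated them, and ages and sexes were not given in the labels used here. Mice of an outbred stock differ in genotype, so the pools also differed in genotype, which cannot be told apart from the pool. Each pool was the unit of replication, so that a value per pool is an average over several mice and the mice within a pool were not separated. The cells had been expanded on plastic and differentiated in a dish, which limits them as a model of the marrow. Pools held 53990642 to 100777353 UMIs in all, 1392 to 4031 cells within the limits of the rule, and a median of 14354 to 22742 UMIs in such a cell. No pair of pools shared more than 9 cell barcodes, which was at most 0.355% of the smaller pool.

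Smooth muscle cells, pericytes and activated fibroblasts build contractile bundles from alpha and gamma smooth muscle actin (*Acta2*, *Actg2*), the actin-binding proteins transgelin (*Tagln*) and calponin (*Cnn1*), tropomyosins and a myosin whose regulatory light chain is *Myl9*. Many of these genes are controlled by serum response factor (SRF) and its actin-sensing cofactors of the MRTF family, and TGF-beta and mechanical tension raise them in fibroblasts. In bone marrow, mesenchymal progenitors give rise to osteoblasts, which make mineralised matrix, and to marrow adipogenic lineage precursors (MALPs), which express adipocyte genes and the chemokine *Cxcl12*.

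The stretches just upstream of the start of some contractile and adhesion genes are shown as examples that hold a CArG box or a run 1 letter off it. The CArG box is the DNA element that SRF binds (CC, a run of A or T bases, GG). Most matched genes of the smooth muscle contractile apparatus held neither (8 of 21 did). The stretches shown were taken from RefSeq on GRCm38.p6 and are written 5′ to 3′ on the strand of the gene. They carry in capitals each CArG box or each run that departs from one by 1 letter. For *Acta2* only the 30 bases around each of its 2 boxes are given (chr19:34255438-34255467 and chr19:34255388-34255417, minus strand), both 1 letter off a CArG box, and both inside an exon of a longer GENCODE M21 transcript. The others, on the plus strand, end before any annotated exon: *Myl9* at chr2:156775214-156775419, *Lmod1* at chr1:135324563-135324806, *Vcl* at chr14:20929148-20929397 and *Lmcd1* at chr6:112273508-112273757.
Acta2 first box: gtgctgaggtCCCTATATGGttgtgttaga
Acta2 second box: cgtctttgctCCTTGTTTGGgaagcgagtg
Myl9: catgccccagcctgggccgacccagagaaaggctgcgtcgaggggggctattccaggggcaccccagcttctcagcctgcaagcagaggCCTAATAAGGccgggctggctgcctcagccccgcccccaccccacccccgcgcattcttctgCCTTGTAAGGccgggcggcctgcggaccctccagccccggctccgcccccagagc
Lmod1: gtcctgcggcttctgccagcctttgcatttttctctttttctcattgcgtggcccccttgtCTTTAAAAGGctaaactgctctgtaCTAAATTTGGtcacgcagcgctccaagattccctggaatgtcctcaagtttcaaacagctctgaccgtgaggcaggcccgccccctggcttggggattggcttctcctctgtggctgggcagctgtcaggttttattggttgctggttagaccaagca
Vcl: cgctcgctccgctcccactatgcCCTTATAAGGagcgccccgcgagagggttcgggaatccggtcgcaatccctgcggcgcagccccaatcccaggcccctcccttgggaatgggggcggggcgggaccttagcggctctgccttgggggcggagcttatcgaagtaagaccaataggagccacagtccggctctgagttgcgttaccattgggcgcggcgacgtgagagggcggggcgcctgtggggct
Lmcd1: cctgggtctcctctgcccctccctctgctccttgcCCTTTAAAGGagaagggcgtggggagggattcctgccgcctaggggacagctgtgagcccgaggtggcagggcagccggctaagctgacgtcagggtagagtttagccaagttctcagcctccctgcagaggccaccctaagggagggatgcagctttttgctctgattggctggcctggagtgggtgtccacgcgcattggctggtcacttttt

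*Myl9* held 1 exact box and 1 run that was 1 letter off, *Vcl* and *Lmcd1* held 1 exact box each, and *Lmod1* held 2 runs that were 1 letter off. Searched on both strands over the 250 bases before each RefSeq start, an exact CArG box stood upstream of 1.62% of 27025 genes. It stood upstream of 3 of 21 matched genes of the smooth muscle contractile apparatus (*Cnn2*, *Myl6* and *Myl9*) and of 5 of 22 stress fibre and focal adhesion genes (*Actg1*, *Fhl1*, *Fhl2*, *Lmcd1* and *Vcl*). With 1 letter allowed to differ, the shares were 21.1% of all genes, 38.1% of the contractile apparatus and 45.5% of the stress fibre list. Over the other lists this looser share ran from 0% of 2 glial genes to 55.6% of 9 skeletal and cardiac muscle genes. It was 40.0% of 15 osteoblast lineage genes, so it was not particular to the contractile lists. The MCAT motif of TEAD factors, CATTCC on either strand, was found for 14.4% of all genes, for 6 of 21 contractile genes and for 8 of 22 stress fibre genes. Of the 7 genes of the score, 4 were matched (*Acta2*, *Timp3*, *Aspn* and *Itm2a*), and none of these held an exact box in this window. A match describes the letters of the window and is no evidence of binding.

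Among the genes that chose the cells, *Acta2* (alpha smooth muscle actin, chr19:34241090-34255590 on GRCm38) stood at 1838, 2920.3 and 4044 CPM in the lowest, median and highest pool of members and at 252, 329.9 and 961 CPM in the remaining cells, where CPM is UMIs of a gene per 1000000 UMIs of the class in that pool. *Tagln* (transgelin, chr9:45929619-45936058) stood at 1201, 1992 and 2658 CPM in members and 137, 167 and 547 CPM in the remaining cells. *Actg2* (gamma smooth muscle actin, chr6:83512905-83536265) had levels of 155, 291 and 659.5 CPM against 15.9, 24.8 and 63.3 CPM. For each of these actin cytoskeleton genes the lowest pool of members lay above the highest pool of the remaining cells. Asporin (*Aspn*, chr13:49544443-49567565), a leucine-rich proteoglycan that binds collagen and TGF-beta, stood at 312, 617 and 1089 CPM against 26.4, 65.5 and 98.2 CPM. *Wisp2* (chr2:163820861-163833146), a secreted protein of the CCN family, stood at 224, 327 and 584 CPM against 21.4, 46.7 and 151 CPM. The ranges of these secreted products also stayed apart. *Timp3* (chr10:86300372-86349506), an inhibitor of metalloproteinases, had 939, 1530.2 and 3929 CPM against 174, 335 and 948 CPM. *Itm2a* (chrX:107397099-107403376), a membrane protein of mesenchymal progenitors, had 208, 403 and 780.5 CPM against 49.95, 78.3 and 249 CPM. For *Timp3* and *Itm2a* the highest pool of the remaining cells lay above the lowest pool of members, although members were higher within each of the 16 pools.

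**Figure D1:**
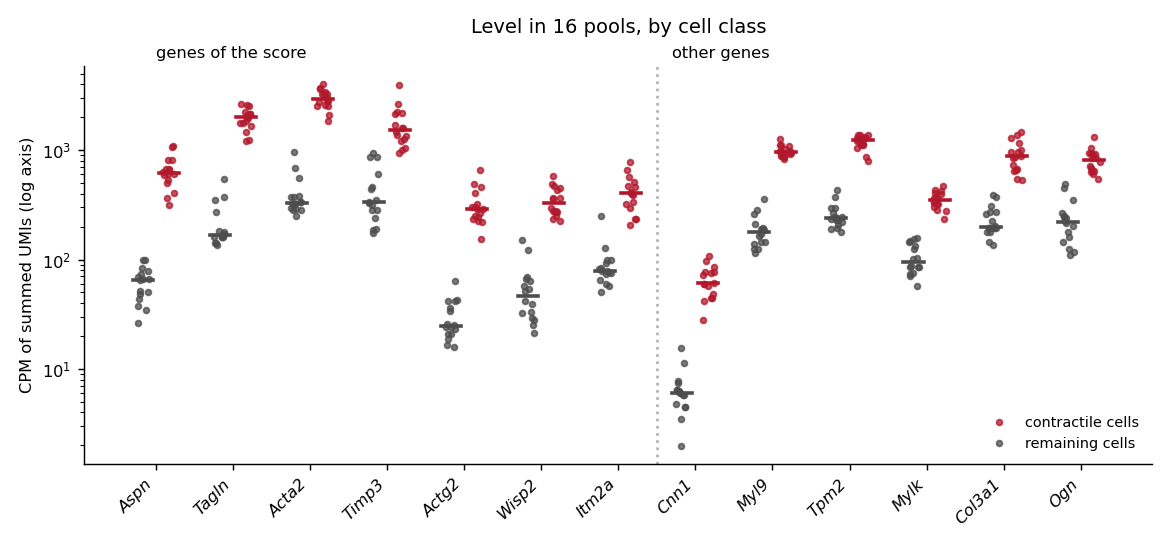
Level in each pool (points, 16 per class; CPM of summed UMIs, log axis; bar, median over pools) of the 7 genes of the score and of 6 genes outside it, in contractile cells and in the remaining cells. Contractile cells sit above the remaining cells for every gene drawn, with overlap of the pools for *Timp3* and *Itm2a*, and *Cnn1* has a median of 60.9 against 6.08 CPM.

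Most members carried several of the 7 genes at once: with each cell thinned to 5000 UMIs, 33.2% had at least 1 UMI of exactly 5 genes, 22.2% of 6 and 6.41% of all 7, against 2.79%, 1.15% and 0.329% of the remaining cells. The rule chose members by these same 7 genes, so this contrast goes with the choice of cells. Free RNA in droplets can give a UMI to a cell that does not express a gene, so the thinned cells were set beside 9079 droplets that the rule left out for *Tyrobp*, a leukocyte gene (median 8578 UMIs before thinning, against 17887 in members). *Acta2* was then detected in 90.4% of members, 31.0% of the remaining cells and 19.9% of leukocyte-side droplets. *Actg2* was detected in 40.9% of members, 5.98% of the remaining cells and 2.69% of leukocyte-side droplets. Without thinning, the *Acta2* shares were 95.9%, 48.6% and 29.4%, and the *Actg2* shares 55.5%, 11.7% and 4.68%. The leukocyte-side share of *Acta2* was thus not small, and the shares in both other classes lay over it. Both genes are part of the score, so the rule itself raised their shares in members, and the part of free RNA was not tested. The score had no gap at the threshold of 1.17: 1201 cells lay within 0.1 above it and 1238 within 0.1 below it, while the median score was 1.64 in members and 0.221 in the remaining cells. The 175 members within 0.02 above the threshold averaged 8.83 UMIs of *Acta2*, 6.17 of *Tagln* and 3.17 of *Aspn* per 10000, and the 156 cells as close below it averaged 9.41, 5.31 and 3.89. The members are thus cells over a threshold on a continuous score, and the values near the threshold are a description of the rule.

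Each gene of the score remained higher when it did not help to choose the cells. With *Acta2* left out and cells chosen from the other 6 genes, its log2 ratio between chosen and remaining cells was 2.59 ± 0.48 (mean ± SD over 16 pools). It was 2.98 ± 0.58 for *Tagln*, 3.24 ± 0.52 for *Actg2*, 2.77 ± 0.36 for *Aspn* and 2.43 ± 0.43 for *Wisp2*. The lowest ratios belonged to *Itm2a* at 1.89 ± 0.28 and *Timp3* at 1.63 ± 0.49, and all 7 were positive in 16 of 16 pools. When the 3 actin cytoskeleton genes were left out together, cells chosen from *Aspn*, *Timp3*, *Wisp2* and *Itm2a* alone were still higher in *Actg2* (2.21 ± 0.56), *Tagln* (2.12 ± 0.61) and *Acta2* (1.80 ± 0.54) in every pool. In the reverse choice, from the actin genes alone, *Aspn* had a log2 ratio of 2.30 ± 0.42, *Wisp2* 2.04 ± 0.43, *Itm2a* 1.47 ± 0.29 and *Timp3* 1.43 ± 0.52. These ratios are descriptions without a test, since the genes were listed with earlier results of these data known.

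The share of cells that were members averaged 15.3 ± 4.34% (SD, n = 16 pools), with a lowest pool of 8.81% (pool 13, 132 members), a median of 13.9% and a highest of 27.5% (pool 10, 928 members). Counting error alone would give an SD of about 0.681 percentage points. Pools 11 and 7 followed pool 10 with 20.6% and 19.5%, and 12 of the 16 pools lay between 11.7% and 16.9%. The share of high-score cells that were cycling, and so left out, also varied, from 15.4% in pool 11 to 45.9% in pool 2. Across the pools, the relation of the share of members to the median UMIs per cell did not reach the threshold (Pearson r = -0.114, p = 0.690; Spearman rho = -0.129, p = 0.633; two-sided permutation tests with 100000 resamples, n = 16). Adjusted over the 2 relations computed, these p-values were 0.690 and 0.646. Without pools 4 and 7, whose median UMIs lay farthest from the middle, r was -0.341. The labels gave no batch apart from the pool and the sequencing run, and all pools were sequenced in both runs.

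**Figure D2:**
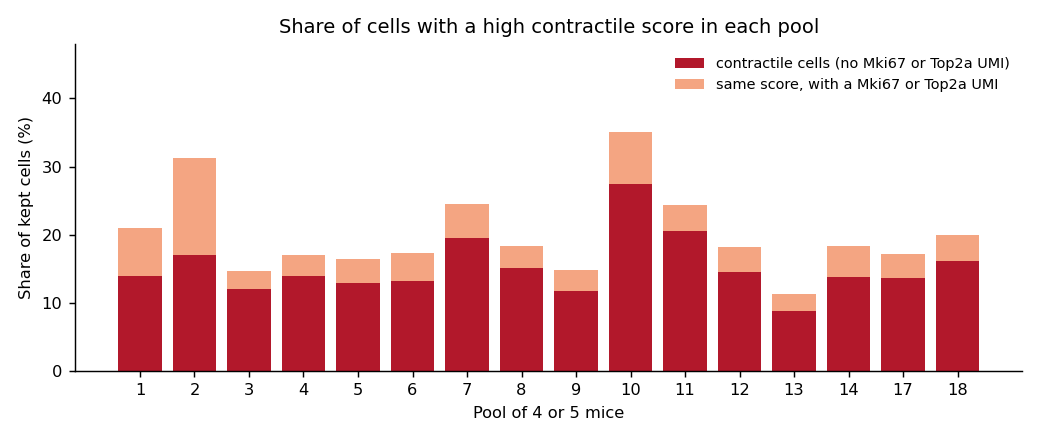
Share of the kept cells of each pool (percent, 16 pools in the order of their numbers) that were contractile cells (dark red), with cells over the same score threshold that had a *Mki67* or *Top2a* UMI stacked on top (light orange). Contractile cells made up the largest share in pool 10 at 27.5% and the smallest in pool 13 at 8.81%, and with the cycling cells pools 10 and 2 reached 35.03% and 31.3%.

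Members and remaining cells were read to a like depth but did not have the same composition. The median UMIs per cell were 18412 ± 2389.8 in members and 18309 ± 2574 in the remaining cells (mean ± SD over 16 pools, higher in 5 of 16). Members had more genes per cell, 4106 ± 267 against 3816 ± 259 (higher in 15 of 16 pools). The mitochondrial share of UMIs was 3.56 ± 0.472% against 3.01 ± 0.419%, and the share of ribosomal protein transcripts 22.4 ± 2.38% against 18.2 ± 1.83%, both higher in members in 16 of 16 pools. These measures were chosen after the data had been seen, come from the cells that chose the members, and carry no test. What part these differences have in the results on genes was not tested, except that 10201 of 10411 called genes kept their call and direction when cells above 20% *Rpl* or 15% *Rps* transcripts were left out. No doublet caller was run; droplets with at least 2 *Xist* UMIs and 2 UMIs of Y-linked genes, as a droplet with cells of both sexes would have, made up 1.13% of members and 1.16% of the remaining cells over all pools. Pools 1, 2, 3, 4, 17 and 18 had at most 2 such remaining cells and no such member, so these shares rest on the other 10 pools.

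The contractile apparatus beyond the score genes was higher in members almost throughout. That direction goes in part with the choice of cells, since the score holds *Acta2*, *Tagln* and *Actg2*. Of 23 tested genes, 22 were called higher and none lower by edgeR with pools as blocks (quasi-likelihood test, adjusted p at most 0.05), and 13 had pools that did not overlap between the classes. Over all 14923 genes tested, 69.8% were called, 34.1% higher and 35.6% lower, and pools did not overlap for 1.41% of genes in the higher and 2.43% in the lower direction. The median log2 fold change of the list was 1.45, against -0.00827 over all genes. Calponin 1 (*Cnn1*), which binds actin and inhibits myosin, stood at 28.1, 60.9 and 108 CPM in the lowest, median and highest pool of members and at 1.98, 6.08 and 15.6 CPM in the remaining cells. Leiomodin 1 (*Lmod1*), which nucleates actin filaments in smooth muscle, stood at 20.8, 35.4 and 42.5 CPM against 2.15, 3.82 and 7.45 CPM. The classes did not overlap for either gene, and the log2 fold changes were 3.22 ± 0.12 (SE) and 2.92 ± 0.0799. *Ppp1r14a*, an inhibitor of the phosphatase that relaxes myosin, had 10.3, 20.2 and 32.0 CPM against 1.77, 2.59 and 5.15 CPM, a log2 fold change of 2.60 ± 0.11. The myosin light chain *Myl9* had 829, 953 and 1268 CPM against 114, 177 and 359.7 CPM and a log2 fold change of 2.33 ± 0.0875. After thinning, *Cnn1* was detected in 18.1% of members, 2.01% of the remaining cells and 1.017% of leukocyte-side droplets, so that most members did not show it at this depth.

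Definitive smooth muscle markers were sparse in members. *Myh11*, the heavy chain of smooth muscle myosin, stood at 0.406, 1.44 and 4.89 CPM in members and 0.0799, 0.163 and 0.636 CPM in the remaining cells, a log2 fold change of 2.96 ± 0.21 between levels of a few CPM. After thinning it was detected in 0.809% of members, 0.0908% of the remaining cells and 0.0255% of leukocyte-side droplets. Desmin (*Des*), the intermediate filament of muscle, had 2.56, 6.14 and 17.5 CPM against 2.64, 4.70 and 8.30 CPM, with pools that overlapped and a log2 fold change of 0.25 ± 0.15 that missed the threshold, though *Des* was called higher when members were the top 10% of cells (0.43). In the list of pericyte and vascular smooth muscle identity genes, 3 of 11 were called higher (*Myh11*, *Notch3* and *Higd1b*) and 6 lower, with a median of -0.32. The pericyte regulator *Rgs5* stood at 2.18, 9.30 and 50.8 CPM against 3.71, 31.6 and 239 CPM, lower in 13 of 16 pools. The pericyte proteoglycan *Cspg4* (NG2) was lower in every pool, at 4.48, 19.1 and 40.8 CPM against 33.3, 69.1 and 114 CPM, a log2 fold change of -2.08 ± 0.0845. The Notch receptor of mural cells, *Notch3*, was higher in every pool at a modest level, 11.5, 21.4 and 30.1 CPM against 5.78, 11.8 and 17.0 CPM. Not all of this list was sparse: *Ndufa4l2* and *Cox4i2*, subunits related to the respiratory chain, stood at 108, 541 and 873 CPM and at 51.7, 243 and 386 CPM in members, against 88.3, 746 and 964 CPM and 57.0, 272 and 446 CPM, both called lower with overlapping pools. Skeletal muscle regulators were near or at 0: *Myod1* and *Pax7* had no UMI in members, and the whole skeletal and cardiac list summed to 2.21 to 6.47 CPM. The word contractile is used here for genes of the actin cytoskeleton.

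Stress fibre and focal adhesion genes, which anchor contractile bundles to the matrix, were higher in 25 of 28 and lower in 2 (*Pdlim3* at -0.83 and *Pxn* at -0.31 on the log2 scale), with a median of 0.99 and 14 genes whose pools stayed apart. Vinculin (*Vcl*), which links integrins to actin, stood at 256, 326 and 449 CPM against 67.6, 99.2 and 177 CPM, a log2 fold change of 1.55 ± 0.0702. *Tgfb1i1* (Hic-5), an adapter of focal adhesions, stood at 146, 156 and 204 CPM against 31.3, 47.9 and 75.2 CPM (1.55 ± 0.0567). The adhesion scaffold *Lims2* (2.08 ± 0.0920) and the LIM protein *Lmcd1* (1.80 ± 0.10) were likewise higher in 16 of 16 pools without overlap. The fold changes of regulators of these genes were smaller. *Srf* had medians of 41.2 CPM in members and 21.5 in the remaining cells and a log2 fold change of 0.70 ± 0.0546, its cofactor *Mkl1* (MRTF-A) 0.63 ± 0.0497 and the DNA-binding partner of YAP *Tead1* 0.70 ± 0.0322. *Klf4*, which represses smooth muscle genes, was lower at -0.91 ± 0.0665. Over the list of SRF, MRTF and myocardin regulators, 9 of 16 tested genes were called higher and 4 lower, with a median of 0.24. Targets of YAP and TAZ, the coactivators that respond to tension, were higher in 9 of 12 with a median of 0.42: *Ctgf* (1.42 ± 0.0478), the receptor kinase *Axl* (1.59 ± 0.0965), *Amotl2* (0.84 ± 0.0381) and *Ankrd1* (2.45 ± 0.14), with *Amotl1* lower. *Ankrd1* had a median of 11.4 CPM in members and reached 102 in 1 pool.

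Genes of the TGF-beta family differed in both directions. *Inhba*, the subunit of activin A, stood at 114, 189 and 273 CPM in members against 29.1, 49.3 and 93.5 CPM, a log2 fold change of 1.66 ± 0.0709. The ligand *Tgfb3* stood at 43.0, 79.9 and 103 CPM against 15.3, 18.9 and 28.1 CPM (1.78 ± 0.0782), and *Ltbp2*, a microfibril protein related to the binding proteins that store TGF-beta, was higher by 1.98 ± 0.10. *Bambi*, a decoy receptor that damps TGF-beta and BMP signals, was lower, at 28.1, 39.4 and 57.1 CPM against 137, 244 and 326 CPM, a log2 fold change of -2.62 ± 0.0977. The pools of both classes did not overlap for *Inhba*, *Tgfb3* and *Bambi*. The ligand *Tgfb1* (-0.72), the receptor *Tgfbr1* (-0.20), the signal transducer *Smad3* (-0.70) and the feedback inhibitor *Smad7* (-0.20) were also called lower. In all, 12 of 21 genes of this pathway were called higher and 8 lower, with a median of 0.26.

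Genes of the matrix, which for these lists means proteoglycans, collagens outside bone and elastic fibres, were mostly higher in members. Of the small leucine-rich proteoglycans outside the score, which regulate collagen fibrils, 8 of 9 were called higher and none lower, with a median of 0.73, and *Bgn* missed the threshold. Osteoglycin (*Ogn*) stood at 549, 811 and 1307 CPM in members against 109.6, 219 and 485 CPM (1.77 ± 0.0912). *Prelp* (1.63 ± 0.0875) and *Omd* (1.22 ± 0.0808) were higher without overlap of the pools, and *Fmod* was higher by 0.73 ± 0.0637 with overlap. *Aspn*, *Omd* and *Ogn* lie close together on chromosome 13 (chr13:49544443-49567565, chr13:49582462-49592822 and chr13:49608046-49624501). Collagen III (*Col3a1*), the collagen of pliable tissues, stood at 536, 879 and 1471 CPM against 137, 198 and 392 CPM (1.85 ± 0.0666). *Col8a1* (2.03 ± 0.11) and the fibril-associated *Col12a1* (1.65 ± 0.0663) were higher as well, while *Col5a2*, a chain of collagen V in bone fibrils, was lower at 346, 678 and 845 CPM against 914, 1876 and 2365 CPM (-1.59 ± 0.0491). The collagens outside bone matrix were higher in 10 of 14 and lower in 4, with a median of 1.08.

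Elastic fibre genes were higher in 9 of 14 and lower in 2, with a median of 0.52. The microfibril protein *Mfap5* stood at 45.3, 69.3 and 237 CPM against 4.35, 9.53 and 41.9 CPM (2.91 ± 0.13), and fibrillin 1 (*Fbn1*) at 71.3, 104 and 131 CPM against 16.1, 28.6 and 54.9 CPM (1.65 ± 0.0591). *Fbln2* (1.67 ± 0.0879) and *Fbln5* (1.31 ± 0.0901) were higher with overlap of the pools, and elastin itself (*Eln*) was not called, at 0.21. Matricellular and fibroblast matrix genes were higher in 11 of 16 and lower in 4, with a median of 0.92, although their summed level was lower in members (10897 to 17353 CPM against 15263 to 25189.7) since the abundant *Sparc* was among those lower. Within the thrombospondins, *Thbs2* was higher at 333, 519 and 656 CPM against 105, 147 and 206 CPM and *Thbs4* lower at 3.15, 24.3 and 65.6 CPM against 129.7, 388 and 823 CPM, log2 fold changes of 1.64 ± 0.0557 and -4.29 ± 0.13 with no overlap in either. Within the CCN family, *Wisp1* was lower (-1.71 ± 0.0710) where *Ctgf* and the score gene *Wisp2* were higher. Metalloproteinases and their inhibitors showed no common direction, with 6 of 13 called higher, 3 lower and a median of 0.0636. *Adamts1* (1.10 ± 0.0607) was higher and *Adam12* (-1.13 ± 0.0665) lower in every pool.

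**Figure D3:**
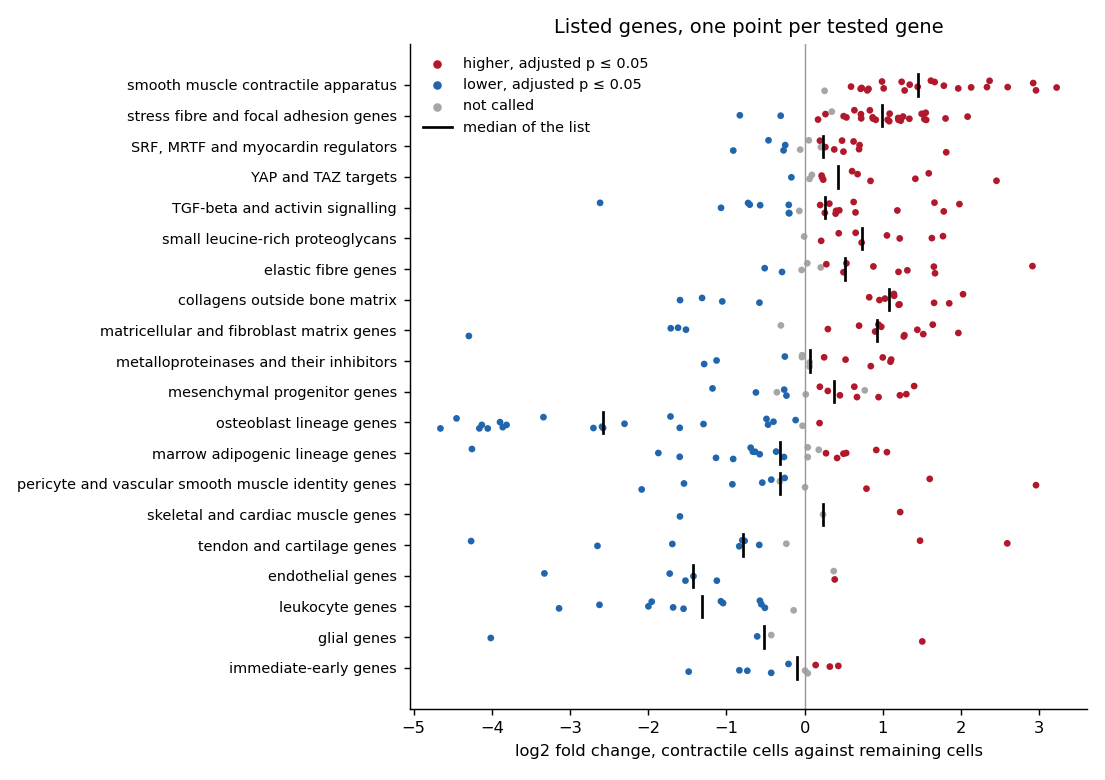
Log2 fold change, members against remaining cells, of the tested genes of each list (points, 1 per gene, red where called higher, blue where called lower at an adjusted p of at most 0.05, and grey where not called; black bar, median of the list; line at 0). The contractile apparatus has a median of 1.45 and the osteoblast lineage list a median of -2.58, the highest and the lowest of the lists drawn.

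Most osteoblast genes were lower in members, with small differences for *Runx2*, *Sp7* and *Dlx5*. Of 22 osteoblast lineage genes, 20 were called lower and 1 higher, with a median of -2.58. *Phex*, an endopeptidase of mineralising osteoblasts and osteocytes, stood at 3.87, 9.31 and 19.7 CPM in members against 87.8, 172 and 263 CPM (-4.13 ± 0.11). *Dmp1*, a mineral-binding matrix protein, stood at 6.30, 26.1 and 52.6 CPM against 162, 373 and 626 CPM (-4.16 ± 0.20), and the Wnt inhibitor of osteocytes *Sost* at 0.906, 5.23 and 18.2 CPM against 24.3, 87.7 and 270.2 CPM (-4.45 ± 0.15). *Mepe*, a phosphoprotein of osteocytes, was lower in every pool (-4.66 ± 0.17), although its pools overlapped. The master regulator *Runx2* had a similar range in both classes, 79.6, 112 and 141 CPM against 80.4, 110.4 and 132 CPM, and a log2 fold change of -0.0273 ± 0.0371 that missed the threshold, a call that changed with the choice of cells (-0.20, called lower, with the top 10% of cells as members). *Sp7* (osterix), which acts after *Runx2*, stood at 85.4, 129.5 and 189 CPM against 81.4, 126 and 203 CPM; it was higher in 9 of 16 pools before scaling, while the fitted log2 fold change was -0.12 ± 0.0336 and was called lower. *Dlx5*, a homeobox gene of early osteoblasts, was the one called higher (0.19 ± 0.0420). Fewer members than remaining cells lay in the top 20% of a score of *Ibsp*, *Bglap*, *Bglap2*, *Ifitm5* and *Smpd3*, 0.518 ± 0.485% against 22.8 ± 8.63% (SD, n = 16), in every pool.

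Adipogenic genes did not follow one direction, since 6 of 20 were called higher and 11 lower, with a median of -0.32. The lipid droplet protein *Plin1* was near 0 in members, at 0.111, 0.518 and 1.22 CPM against 3.44, 9.29 and 31.1 CPM (-4.25 ± 0.18). Adiponectin (*Adipoq*) stood at 17.5, 60.2 and 86.8 CPM against 69.2, 159 and 366 CPM (-1.60 ± 0.14), and the fatty acid transporter *Cd36* was lower too (-1.87 ± 0.0994). The leptin receptor *Lepr*, which marks stromal cells of adult marrow, stood at 6.67, 18.0 and 41.7 CPM against 8.74, 21.8 and 78.1 CPM, with overlapping pools (-0.58 ± 0.10). Its call was lost with the remaining cells limited by *Col1a2* (-0.22) or with the top 30% of cells as members (-0.12). *Pparg* missed the threshold (0.0397 ± 0.13). At the level of cells, 29.9 ± 8.497% of members lay in the top 20% of a MALP score (*Cxcl12*, *Lpl*, *Adipoq*, *Igfbp4* and *Fabp4*) against 19.2 ± 9.14% of the remaining cells, higher in 16 of 16 pools. Among mesenchymal progenitor genes, 9 of 16 were called higher and 4 lower (*Cd34*, *Pdgfra*, *Ctsk* and *Cd44*), with a median of 0.37. The homeobox gene *Prrx2* stood at 122, 166 and 198 CPM against 39.4, 55.4 and 93.4 CPM (1.40 ± 0.0549) without overlap. The growth factor receptor *Pdgfrb* (1.30 ± 0.0693) and *Ly6a* (Sca-1, 1.22 ± 0.14) were higher in every pool, and the BMP antagonist *Grem1* (0.67 ± 0.14) in 14 of 16, although its call was lost after thinning (0.24) and with the top 10% of cells as members (0.18).

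Markers of other cell types the culture could hold were mostly lower in members. Of the leukocyte genes, 11 of 12 were called lower and none higher, and their summed level ran from 57.9 to 345 CPM in members against 118 to 768. Endothelial genes summed to 7.30 to 24.5 CPM against 11.2 to 42.9, with 5 of 7 lower (*Pecam1* -1.42 ± 0.0896) and 1 higher. Tendon and cartilage genes were lower in 7 of 10 and higher in 2: the tendon regulator *Scx* (-0.77 ± 0.0965) and *Col11a1* (-2.65 ± 0.0812) were lower, while *Col2a1*, the cartilage collagen, was higher in 15 of 16 pools (1.48 ± 0.25) at medians of 43.5 and 9.47 CPM. Of the glial genes, *S100b* was higher (1.504 ± 0.0962), and *Sox10* was lower. Immediate-early genes, which dissociation can raise, were lower in 5 and higher in 3 of 10, for example *Atf3* (-1.48 ± 0.0825) and *Fos* (-0.73 ± 0.0471). Cell cycle genes outside the rule were lower in 15 of 17, such as *Cenpf* (-3.63 ± 0.11) and *Ccna2* (-3.19 ± 0.12), a direction that the rule fixed by taking only cells without *Mki67* and *Top2a*. The part of the leukocyte markers in the other results was not tested; with the remaining cells limited to those with at least 10 *Col1a2* UMIs per 10000, 9682 of 10218 calls that could be retested were kept in direction and 8 were reversed.

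Outside the lists, the genes with the largest differences in members included secreted factors and imprinted growth genes. *Mest*, an imprinted gene of mesoderm, stood at 12.7, 56.3 and 142 CPM in members against 3.86, 10.5 and 15.5 CPM (2.48 ± 0.20). The serine protease *Prss23* stood at 230.0, 389 and 674 CPM against 31.4, 63.2 and 224 CPM (2.32 ± 0.10). *Rspo2*, a secreted amplifier of Wnt signalling, stood at 55.9, 82.1 and 119 CPM against 7.88, 17.4 and 40.0 CPM (2.23 ± 0.11). For *Prss23* and *Rspo2* the pools of the classes stayed apart, and for *Mest* they overlapped. The long pentraxin *Ptx3* (2.20 ± 0.14) and the TEAD cofactor *Vgll3* (2.00 ± 0.0884) were also higher. *Vgll3* stood at 85.3, 121 and 185 CPM against 13.3, 27.4 and 71.1 CPM, again without overlap. The small heat shock protein *Hspb1* (1.78 ± 0.0978), the imprinted RNA *H19* (1.73 ± 0.12), the secreted *Ndnf* (1.71 ± 0.10), the protease *Pappa* that frees IGF (1.64 ± 0.0789), the chemokine *Ccl7* (1.57 ± 0.0962) and the granzyme *Gzme* (1.90 ± 0.11) were also among the 12 with the largest fold change. Granzymes and Ly6 genes have close relatives, between which reads can be hard to place.

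At the other end, the 8 genes outside the lists with the most negative fold change, among those at 50 CPM or more, included immunoglobulin chains and adipsin. Adipsin (*Cfd*), a complement factor made by adipocytes, stood at 0, 1.36 and 5.66 CPM in members against 8.64, 75.9 and 271 CPM (-6.01 ± 0.13). The potassium channel *Kcnk1* stood at 1.79, 5.17 and 13.1 CPM against 88.2, 129 and 172 CPM (-4.53 ± 0.12), and the neuropeptide galanin (*Gal*) at 1.12, 6.57 and 13.1 CPM against 27.6, 113 and 219 CPM (-4.18 ± 0.0918). The transmembrane collagen *Col13a1* was lower by the same order (-4.06 ± 0.0948). Pools did not overlap for these non-immune genes. The immunoglobulin chains *Iglc2* (-6.33 ± 0.25), *Iglc1* (-5.79 ± 0.21), *Igkc* (-5.47 ± 0.30) and *Ighm* (-5.31 ± 0.23) are products of plasma and B cells. Their levels in the remaining cells spanned a wide range, for *Igkc* from 0.410 to 8958 CPM, and overlapped with members; *Iglc1* and *Iglc2* are close copies whose reads may be split between them.

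The score was cut into 5 equal bins among cells without *Mki67* or *Top2a* UMIs (7964 or 7965 cells each), and the contractile and matrix genes outside the score did not climb alike over them. *Cnn1* stood at 1.00, 1.27, 2.04, 4.72 and 61.4 CPM from bin 1, the lowest, to bin 5 (means over 16 pools), most of its rise lying between bins 4 and 5. *Myl9* stood at 27.3, 35.4, 102, 324 and 953 CPM, *Col3a1* at 44.8, 78.3, 198, 436 and 891 and *Inhba* at 17.2, 23.6, 41.5, 98.5 and 179, all of them already higher in bin 4. Among osteoblast genes *Ibsp*, a sialoprotein of bone matrix, had 76870.2, 72550.3, 52484, 21702 and 9410.2 CPM and osteocalcin (*Bglap*) 10257, 9781, 5449.7, 1248 and 536, with the largest ratio between neighbouring bins from bin 3 to bin 4. *Runx2* had 88.4, 96.2, 114, 135 and 116 CPM and *Sp7* 120.5, 129, 141, 145 and 132, both highest in bin 4. For 3 adipogenic genes, chosen after their values were seen, the highest level lay before bin 5: *Cxcl12* had 625, 703, 1759, 2523 and 1418 CPM, *Lepr* 19.1, 21.0, 42.2, 52.8 and 20.9 and *Adipoq* 201, 178, 246, 227 and 62.5. *Cxcl12* and *Lepr* were thus highest in bin 4, and in bin 5 *Lepr* stood at the level of bins 1 and 2. Bin 5 held all members and also the cells just under their threshold. The SD over pools was large for these genes, 40.8 CPM for *Lepr* and 1734 CPM for *Cxcl12* in bin 4, and no test was made since the score orders the cells by genes that vary with these.

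**Figure D4:**
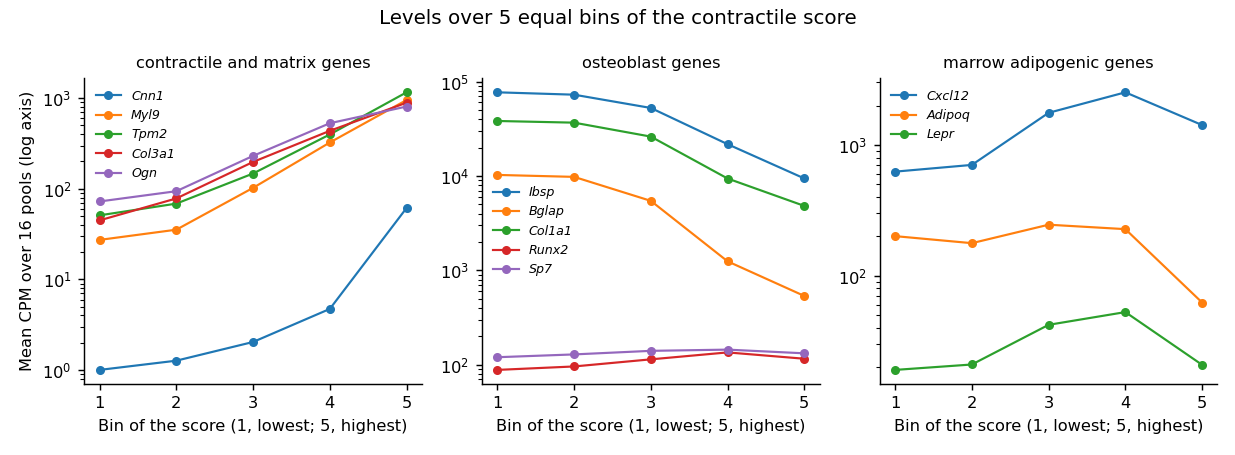
Mean level over 16 pools (CPM, log axis) in each of 5 equal bins of the contractile score, lowest bin on the left, for contractile and matrix genes, osteoblast genes and marrow adipogenic genes. *Cnn1* goes from 1.00 to 61.4 CPM, *Bglap* from 10257 to 536 CPM, and *Lepr* peaks in bin 4 at 52.8 CPM.

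Members were next set beside 3 other classes of cells in the same pools: 9631 osteoblast-high cells, 7520 MALP-high cells and the 2314 cycling high-score cells. Osteoblast-high cells lay in the top 20% of the osteoblast score and outside the top 20% of the MALP score. MALP-high cells were chosen the other way round, and neither class held members. The 3 comparisons share the members, so their fold changes are given side by side and not correlated. Median UMIs per cell were 17887 in members, 21117 in osteoblast-high, 11124 in MALP-high and 22676 in cycling cells. Against osteoblast-high cells, 76.5% of 13274 genes were called (37.9% higher, 38.7% lower), and against MALP-high cells 67.6% of 13439 (34.7% higher, 32.9% lower). Scaling by library size in place of TMM factors would move the median of all genes by 0.44 and -0.25 on the log2 scale in these, by 0.0916 against the remaining cells and by 0.0439 against cycling cells, and fold changes are relative to that shift.

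The contractile apparatus stood above both differentiated classes. Of its genes, 21 of 22 were called higher and none lower against osteoblast-high cells (median 1.98). Against MALP-high cells, 19 of 22 were called higher and 1 lower (median 0.99). These directions go in part with the choice of cells. Members were chosen by a score that holds *Acta2*, *Tagln* and *Actg2*, and neither class held members. *Cnn1* had log2 fold changes of 4.85 ± 0.18 and 2.75 ± 0.14, *Lmod1* of 5.64 ± 0.12 and 1.84 ± 0.0910, and *Myl9* of 4.48 ± 0.12 and 0.97 ± 0.0652. The exception was the myosin light chain kinase *Mylk*, higher than in osteoblast-high cells (3.31 ± 0.11) and lower than in MALP-high cells (-0.26 ± 0.0744). *Col3a1* (2.91 ± 0.12 and 1.93 ± 0.0866) and *Inhba* (2.89 ± 0.11 and 3.25 ± 0.0979) were higher than in either class. *Ogn* was higher than in osteoblast-high cells (3.78 ± 0.15) and was not called against MALP-high cells (-0.0768 ± 0.0471, though lower in CPM in 15 of 16 pools). Matricellular genes were higher in 11 of 16 and in 12 of 16, with medians of 1.65 and 1.39. Other lists changed sign with the class. Pericyte and vascular smooth muscle identity genes had medians of -0.63 and 0.70, and tendon and cartilage genes of -0.77 and 1.33. Lineage genes were read against each class in turn. With the 5 genes of each class's own score left out, 16 of 17 osteoblast genes were lower than in osteoblast-high cells, and 15 of 15 adipogenic genes were lower than in MALP-high cells, as those choices of cells fix.

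In the other direction, 13 of 21 osteoblast genes were higher in members than in MALP-high cells and 3 lower (median 0.44). Of the adipogenic genes, 17 of 19 were higher than in osteoblast-high cells (median 2.78). These directions, and those of the lineage genes that follow, also go in part with the choice of cells. MALP-high cells had to lie outside the top of the osteoblast score, and osteoblast-high cells outside the top of the MALP score. Members had neither limit, and the genes of the other class's score were not left out of these counts. *Alpl*, the phosphatase of mineralisation, was 1.68 ± 0.11 against MALP-high cells and -0.85 ± 0.0907 against osteoblast-high cells, and *Sp7* 1.019 ± 0.0700 and -0.50 ± 0.0793. *Pparg* was 3.07 ± 0.0905 against osteoblast-high and -2.32 ± 0.0761 against MALP-high cells, and *Lepr* 1.73 ± 0.16 and -2.78 ± 0.11. *Runx2* differed little in either, with -0.24 ± 0.0689 and 0.18 ± 0.0498. Outside the lists, the largest difference from osteoblast-high cells was *Igfbp5* (5.02 ± 0.18), a binding protein of IGF, followed by *Rspo2* (5.02 ± 0.19) and *Ptx3* (4.92 ± 0.18). The lowest were *Lipc* (-5.88 ± 0.11), a hepatic lipase, and *Kcnk1* (-5.82 ± 0.14). From MALP-high cells the largest differences were *Itgbl1* (3.25 ± 0.13), *Cyp26b1*, which breaks down retinoic acid (2.73 ± 0.13), and the calcium-binding *S100a4* (2.70 ± 0.0943). The fat cell genes *Cfd* (-8.59 ± 0.16), *Cidec* (-7.88 ± 0.14), *Retn* (-7.77 ± 0.15) and *Adig* (-7.35 ± 0.19) were the lowest.

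**Figure D5:**
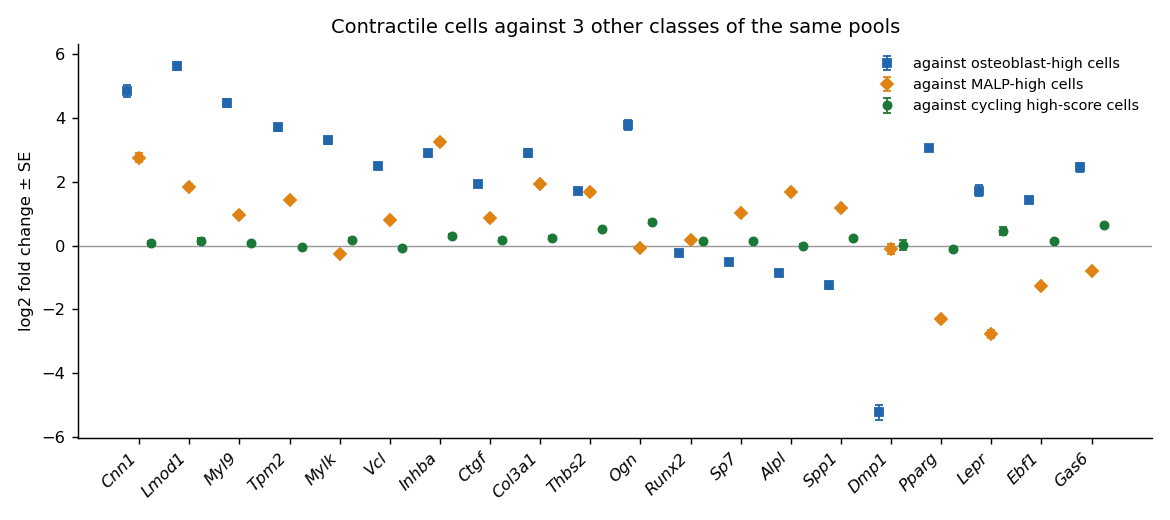
Log2 fold change ± SE of members against osteoblast-high cells (blue squares), MALP-high cells (orange diamonds) and cycling high-score cells (green circles) for 20 genes, where a value above 0 means higher in contractile cells. *Cnn1* reads 4.85, 2.75 and 0.0650, *Pparg* 3.07, -2.32 and -0.11 and *Runx2* -0.24, 0.18 and 0.13 in that order.

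Members and cycling high-score cells passed the same threshold on the score. Like levels of genes that vary with the score thus go in part with this choice of cells. Over 12673 genes, 36.4% were called, 18.8% higher in members and 17.6% lower. Of the contractile apparatus, 5 of 23 were called higher and 1 lower, with a median of 0.0446. The share called higher lay near that over all genes. *Cnn1* (0.0650 ± 0.0664), *Lmod1* (0.15 ± 0.0886) and *Myl9* (0.0668 ± 0.0408) were not called, which does not show that the levels are equal. Adipogenic genes were higher in 14 of 20 (*Lepr* 0.46 ± 0.12), matricellular genes in 9 of 16 (*Thbs2* 0.50 ± 0.0489), and osteoglycin was higher by 0.75 ± 0.0543. The mitotic genes *Hmmr* (-5.74 ± 0.11), *Nusap1* (-5.43 ± 0.14) and *Cenpe* (-4.80 ± 0.11) were lower, as the rule fixes. Outside the lists, *Kctd12* (0.82 ± 0.0679), the growth-arrest gene *Ypel3* (0.62 ± 0.0508) and the glutathione peroxidase *Gpx3* (0.61 ± 0.0356) were among the genes higher in members. These calls depended on the pairing of classes within pools: without the pool as a block, 611 genes were called higher and 1163 lower, where the paired fit called 2380 and 2235, and no contractile gene was called.
Cycling cells were deeper, and with all cells thinned to 5000 UMIs 1197 genes were called higher and 1163 lower, 2 of them contractile apparatus genes called higher.

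Within the members, the actin cytoskeleton genes and the sum of *Aspn*, *Wisp2* and *Itm2a* did not rise together. Over members of one pool, thinned to 5000 UMIs, the rank correlation of *Tagln* with *Acta2* was 0.704 (median over 16 pools), that of *Acta2* with *Actg2* 0.355 and that of *Aspn* with *Itm2a* 0.307. Summed *Acta2*, *Tagln* and *Actg2* correlated with summed *Aspn*, *Wisp2* and *Itm2a* at -0.260, from -0.352 to -0.115 over the pools. A threshold on a sum can itself give parts of the sum a negative correlation among the chosen cells, and over all kept cells *Aspn* and *Tagln* had a rho of 0.355. Among 3026 genes detected in at least 20% of members, those that followed the actin genes most closely were *Myl9* (0.673), *Tpm2* (0.670), beta actin (*Actb*, 0.559), *Myl6* (0.539), *Actg1* (0.464) and the actin-sequestering *Tmsb4x* (0.455). Osteopontin (*Spp1*, -0.297), the receptor *Fgfr1* (-0.230) and *Ibsp* (-0.221) were lowest. Those that followed *Aspn*, *Wisp2* and *Itm2a* were *Col3a1* (0.411), *Thbs2* (0.358), *Col12a1* (0.329), *Timp2* (0.279) and fibronectin (*Fn1*, 0.234), while *Tmsb4x* (-0.280) and *Actb* (-0.246) were lowest. These correlations over cells are descriptions within one capture each, the cells share depth and library, and the genes named were chosen after their values were seen.

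Between pools, the members varied about as much as the remaining cells. Over 2840 genes with a mean of at least 50 CPM in members, the SD over pools of log2(CPM + 1) had a median of 0.247 in members and 0.243 in the remaining cells, and 16 genes exceeded an SD of 1 in members. The most variable was *Xist*, the X-inactivation RNA, with 0, 299 and 613 CPM in the lowest, median and highest pool, followed by *Igkc*. The chemokine *Cxcl14* ran over 20.4, 52.9 and 548 CPM, highest in pool 1, and spread as widely in the remaining cells (SD 1.39 in members and 1.49 in the rest on the log2 scale). *Ctla2a*, a cysteine protease inhibitor, ran over 10.7, 46.2 and 381 CPM, with an SD of 1.38 in members against 0.994, and was highest in pool 12. *Gm10076* (1.42), *Ftl1-ps1* (1.41), *Gm10260* (1.26) and *Eno1b* (1.13) completed the 8 with the largest SD, and are near copies of other genes, so that their reads are uncertain. Of the genes of the score, *Timp3* varied most between pools (0.557) and *Acta2* (0.300) and *Tagln* (0.342) least. Both *Acta2* and *Tagln* were highest in pool 8, and *Tagln* and *Actg2* were lowest in pool 6.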

How the data were processed

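10x single-cell libraries of cultured marrow stromal cells from 16 pools of DO mice were sequenced in 2 runs. The authors aligned reads and made the deposited UMI counts per gene and barcode with Cell Ranger 5.0.0 on mm10 per the labels, and these counts were not normalized. Run 1 was used, and run 2, a second sequencing of the same libraries, was an alternative. Barcodes with 400 to 6200 genes, at most 10% mitochondrial UMIs, at least 5000 UMIs and *Tyrobp* under 2 per 10000 were kept, which left 48776 of 107853. The authors' cell annotation was not used here.

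For each pool, the UMI counts of a class were added up (at least 20 cells) and tested with edgeR 4.0.16 in R 4.3.3 (filterByExpr, TMM, quasi-likelihood test, Benjamini-Hochberg over all genes tested, threshold 0.05) with the pool as a block, since each pool gave both classes. Deviations of the classes of 1 pool from the class means correlated at 0.238 or more against the remaining cells (0.141 or more in the other comparisons), and each pool correlated best with itself in 16 of 16. On simulated counts for the comparison with the remaining cells (14457 genes, 200 changed by 1 on the log2 scale), 90.5% were recovered with 5 false calls. There the classes were not chosen from the counts, and far fewer genes changed than were called in the data. False calls in the data were thus not measured. Correlations, permutation tests and figures used Python 3.11.15 with scipy 1.17.1. Named genes were every gene of the score, up to 4 genes with the largest absolute fold change in each list (over 0.5 on the log2 scale, mean of at least 10 CPM) with members whose absence defines the cells, the 12 highest and 8 lowest genes outside the lists that moved alike in every pool (at least 50 CPM), and the 8 most variable between pools; other genes named were chosen after their values were seen. Some genes that this rule names are not reported here. The members and the lists were chosen with earlier results of these data known. Depth was 53990642 to 100777353 UMIs per pool, and shares of cells carry counting error only in their detection. Alternatives were DESeq2 1.42.0, no filter, no block, thinning, other thresholds, weights and cell limits, run 2, and leaving out pools.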

Additional observations from a re-analysis of the deposited data

How the results depend on the processing

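Against the remaining cells, DESeq2 kept 10123 of 10411 calls in direction, run 2 kept 9756 and thinning to 5000 UMIs kept 7592 of 9428 tested in both. Medians of all lists kept their sign under DESeq2's scaling. Of the members reported, 85.8% were chosen again from run 2 and 92.5% from thinned counts. Of the 8466 cells chosen from thinned counts, 81.3% were members reported here. With cycling cells kept, the share averaged 19.98%, and *Birc5* (0.72), *Ccna2* (1.03), *Cenpf* (0.59) and *Ube2c* (0.75) turned higher in members on the log2 scale, as the kept cells themselves bring these genes; in all, 271 of 10398 retested calls were reversed with cycling cells kept. *Runx2*, never called in the main test, turned to 0.0184 with score genes divided by their SD, 0.0819 with thinning, 0.0630 with the top 30% of cells and 0.00710 without the 5% of cells with most UMIs, none of them called. It was called lower with the top 10% of cells (-0.20) and with the remaining cells limited by *Col1a2* (-0.11), and *Des* was called higher with the top 10% (0.43). Without the replicate block, 3740 genes were called higher and 4232 lower than in the remaining cells, the contractile apparatus count stayed at 22, *Sp7* lost its call, and 1 osteoblast gene in place of 3 was lower than in MALP-high cells. Against cycling cells, removing the block left 611 genes higher, 1163 lower, 0 contractile genes higher and 0 osteoblast genes lower, thinning left 1197, 1163, 2 and 0, and no filter gave 9 contractile genes higher in place of 5; the cause was not tested. The block changed no other count by over 1.5 times. *Lepr* lost its call with the remaining cells limited by *Col1a2* (-0.22) or with the top 30% (-0.12), *Lpl* with the *Col1a2* limit (-0.15), and *Grem1* with thinning (0.24) or the top 10% (0.18). Leaving out pools 10 or 2, chosen after seeing the data, or pool 13 reversed no call. Low UMI depth limits what can be said of sparse genes such as *Myh11*.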
